A study of Mus musculus with 35 samples.

Results

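Ribosome biogenesis genes, which encode the nucleolar factors that make ribosomes but are not part of the finished ribosome, were followed in mouse LT-HSCs, the long-term haematopoietic stem cells that renew themselves and supply all blood lineages. The members were a named list of 47 symbols, listed for their function but with earlier results of these data known. A row of the counts matched 46 of them, among 19138 genes in all, and Noc2l was not analysed here. All 46 passed the low-count filter that left 14945 genes for testing, with 95 to 74716 counts per gene and library.

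The groups were JAK2V617F Ezh2 -/- (6 libraries), Ezh2 -/- (4), JAK2V617F Ezh2 +/- (8), Ezh2 +/- (7), JAK2V617F with intact Ezh2 (6) and control mice with intact Ezh2 (4). Every mouse, the controls included, carried SclCre, a Cre recombinase driven by regulatory elements of the blood stem cell gene Scl. JAK2V617F is the activated kinase of myeloproliferative neoplasms, and Ezh2 is the methyltransferase of the silencing complex PRC2. Each library came from RNA of 1000 sorted cells. The labels give no age of the mice.

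Ribosome production starts in the nucleolus, where RNA polymerase I copies the ribosomal DNA into a long precursor RNA. Box C/D and box H/ACA particles modify this precursor, the small subunit processome folds and cleaves it, and separate sets of factors assemble the small and the large subunit. Blood stem cells are known for a low rate of protein synthesis, and the transcription factor Myc, which binds the E-box CACGTG, is known to drive genes of this pathway in many cell types.

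The libraries held 13.6 to 48.6 M (mega) counts, with a median of 24.9 M. There were 20 female and 15 male libraries, 14 of batch 1 and 21 of batch 2, and the 4 controls were all female. A part of Ezh2 that was counted on its own held none of the Ezh2 counts in the 6 JAK2V617F Ezh2 -/- libraries, which allows a share of up to 0.213 to 0.634% per library. It held 0 to 0.478% of them in Ezh2 -/- libraries, 4.077 to 8.495% in JAK2V617F Ezh2 +/-, 0 to 9.497% in Ezh2 +/-, 6.342 to 9.272% in JAK2V617F and 6.02 to 8.718% in control libraries. Ezh2 +/- batch 2 replicates 1 and 3 were low at 1.738% and 1.774%. A pair of libraries labelled Ezh2 +/- went against their labels: batch 1 replicate 3 had none of 831 Ezh2 counts in that part, and batch 1 replicate 1, labelled male, held Xist RNA. Where Ezh2 +/- libraries are compared, the adjusted-p calls of members, the member medians and the summary level are given with and without this pair. Other values include it unless stated, among them the ranges of Ezh2 +/- levels in CPM, the counts by role, the separation of groups and the other gene lists. The 11 LT-HSC markers were detected, with summed levels of 2476.7 to 4278 CPM (counts scaled to a common library total with edgeR's TMM factors) in libraries with JAK2V617F and 4054.2 to 5988.3 CPM in libraries without it.

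Promoters are shown for 5 members that rose with JAK2V617F, because they carry different combinations of the motifs searched. The sequences are from RefSeq on GRCm38.p6, 250 bases before to 50 bases after the gene start, written 5′ to 3′ on the gene's strand. The end of each window was also sought near the start of the gene's annotated transcripts. It was found in 2 transcripts for Pes1 and 1 for Dkc1, but in 0 for Nop2, Mybbp1a and Nolc1. The capitals mark the E-box CACGTG, its variant CACGCG and the ETS core CGGAAG, each searched on both strands, as were CCAAT and GGGCGG. In Mybbp1a the variant is found on each strand, in overlapping bases. Nop2 (chr6:125131633-125131932, plus strand) and Mybbp1a (chr11:72441077-72441376, plus strand) hold the E-box and the ETS core. Pes1 (chr11:3963725-3964024, plus strand) holds the E-box close to its start and the variant on the other strand at position -247. Nolc1 (chr19:46075597-46075896, plus strand) holds only the variant and the ETS core, and Dkc1 (chrX:75095604-75095903, plus strand) none of the 3.
Nop2: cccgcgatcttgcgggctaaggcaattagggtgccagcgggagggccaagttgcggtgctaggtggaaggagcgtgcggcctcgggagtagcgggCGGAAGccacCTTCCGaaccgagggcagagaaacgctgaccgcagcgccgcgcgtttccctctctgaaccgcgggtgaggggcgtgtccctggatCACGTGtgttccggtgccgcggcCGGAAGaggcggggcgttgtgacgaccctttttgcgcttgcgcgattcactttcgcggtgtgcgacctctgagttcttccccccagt
Mybbp1a: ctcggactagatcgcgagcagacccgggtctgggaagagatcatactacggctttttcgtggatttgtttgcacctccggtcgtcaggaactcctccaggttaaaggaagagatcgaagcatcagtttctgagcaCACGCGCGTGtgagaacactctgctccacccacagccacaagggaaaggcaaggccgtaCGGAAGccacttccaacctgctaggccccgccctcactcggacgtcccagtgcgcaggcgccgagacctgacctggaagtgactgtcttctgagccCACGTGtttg
Pes1: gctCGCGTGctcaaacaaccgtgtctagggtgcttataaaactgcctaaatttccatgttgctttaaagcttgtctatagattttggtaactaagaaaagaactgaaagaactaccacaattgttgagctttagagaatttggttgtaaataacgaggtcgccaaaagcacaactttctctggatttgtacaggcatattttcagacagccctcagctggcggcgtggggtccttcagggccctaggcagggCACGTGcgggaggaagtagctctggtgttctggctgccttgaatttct
Nolc1: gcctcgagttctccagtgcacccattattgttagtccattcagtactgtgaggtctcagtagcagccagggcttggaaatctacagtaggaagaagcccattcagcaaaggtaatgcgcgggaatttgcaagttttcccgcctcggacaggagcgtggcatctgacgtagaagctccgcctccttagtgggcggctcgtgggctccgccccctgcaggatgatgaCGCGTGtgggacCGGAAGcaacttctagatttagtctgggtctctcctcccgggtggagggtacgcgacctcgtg
Dkc1: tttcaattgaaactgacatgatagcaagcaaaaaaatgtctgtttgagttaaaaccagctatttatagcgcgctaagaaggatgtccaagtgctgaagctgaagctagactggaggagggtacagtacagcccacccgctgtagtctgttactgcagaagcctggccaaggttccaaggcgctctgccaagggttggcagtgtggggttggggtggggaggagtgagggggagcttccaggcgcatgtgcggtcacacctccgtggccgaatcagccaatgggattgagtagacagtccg

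The table held a window for 42 of the 46 members, and Bop1, Fbl, Npm1 and Rrp12 are named only. The E-box stood in a window of 12 of these 42 members (28.6%), against 11.3% of tested genes with a window and 8.09% of all genes with a window. The other genes of the pathway held it in 15.2% and ribosomal protein genes in 10.3%. The ETS core stood in 26 of 42 (61.9%, against 32.4% of tested genes) and the E-box variant in 11 (26.2%, against 18.8%), while CCAAT (38.1%, against 42.5%) and GGGCGG (69%, against 65%) lay near the share of tested genes. In the pooled comparison described below, 4 of the 12 members with the E-box and 17 of the 30 without it rose. A match of letters is a description and not a binding site.

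The members spanned a wide range of levels. Compared per length, as mean RPKM (CPM per kilobase of deposited gene length) over all libraries, the box H/ACA protein Nop10 stood highest at 476 RPKM, followed by the nucleolar chaperone Npm1 at 383 RPKM. Next came the box C/D scaffold Nop58 at 189 RPKM, nucleolin (Ncl) at 175 RPKM and Nop56 at 160 RPKM. The lowest were Utp20 at 4.8 RPKM, the large AAA ATPase Mdn1 at 5.23 RPKM, Noc3l at 8.28 RPKM and Heatr1 at 9.24 RPKM. The deposited length of Ncl, 8257 bases, sets its RPKM, and by counts alone it was the most abundant member at 1445.3 CPM. Npm1 has processed copies in the genome, so its counts are uncertain, and overlapping or antisense genes could not be told apart because the use of strand is not given in the sources used here.

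Part of the list was higher with JAK2V617F. Averaged over the 3 Ezh2 genotypes (the pooled comparison), 23 of 46 members rose and none fell at an adjusted p under 0.05, where 25.4% of all 14945 tested genes were called, 12.9% higher and 12.5% lower. The changes were small. The median log2 change over the members was 0.2266, against -0.0092 over all tested genes, and 42 members had a positive value. The test was edgeR's quasi-likelihood test, fitted to the 35 libraries with genotype, batch and sex as terms and adjusted by Benjamini-Hochberg over all tested genes. Within batch 1 alone, batch 2 alone and females alone, 39, 40 and 39 of the 46 members had a positive value, where 50.3%, 52.1% and 50.2% of all tested genes did. The member medians there were 0.278, 0.179 and 0.235, against 0.003, 0.019 and 0.001 over all tested genes. The 23 called members ranged from 0.037 to 0.941, from 0.097 to 0.54 and from 0.181 to 0.774 in log2 change. Their signs are largely fixed by the choice of these members from the same libraries. Without the doubted libraries 22 of these 23 still passed, and the member median was 0.211.

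**Figure D1:**
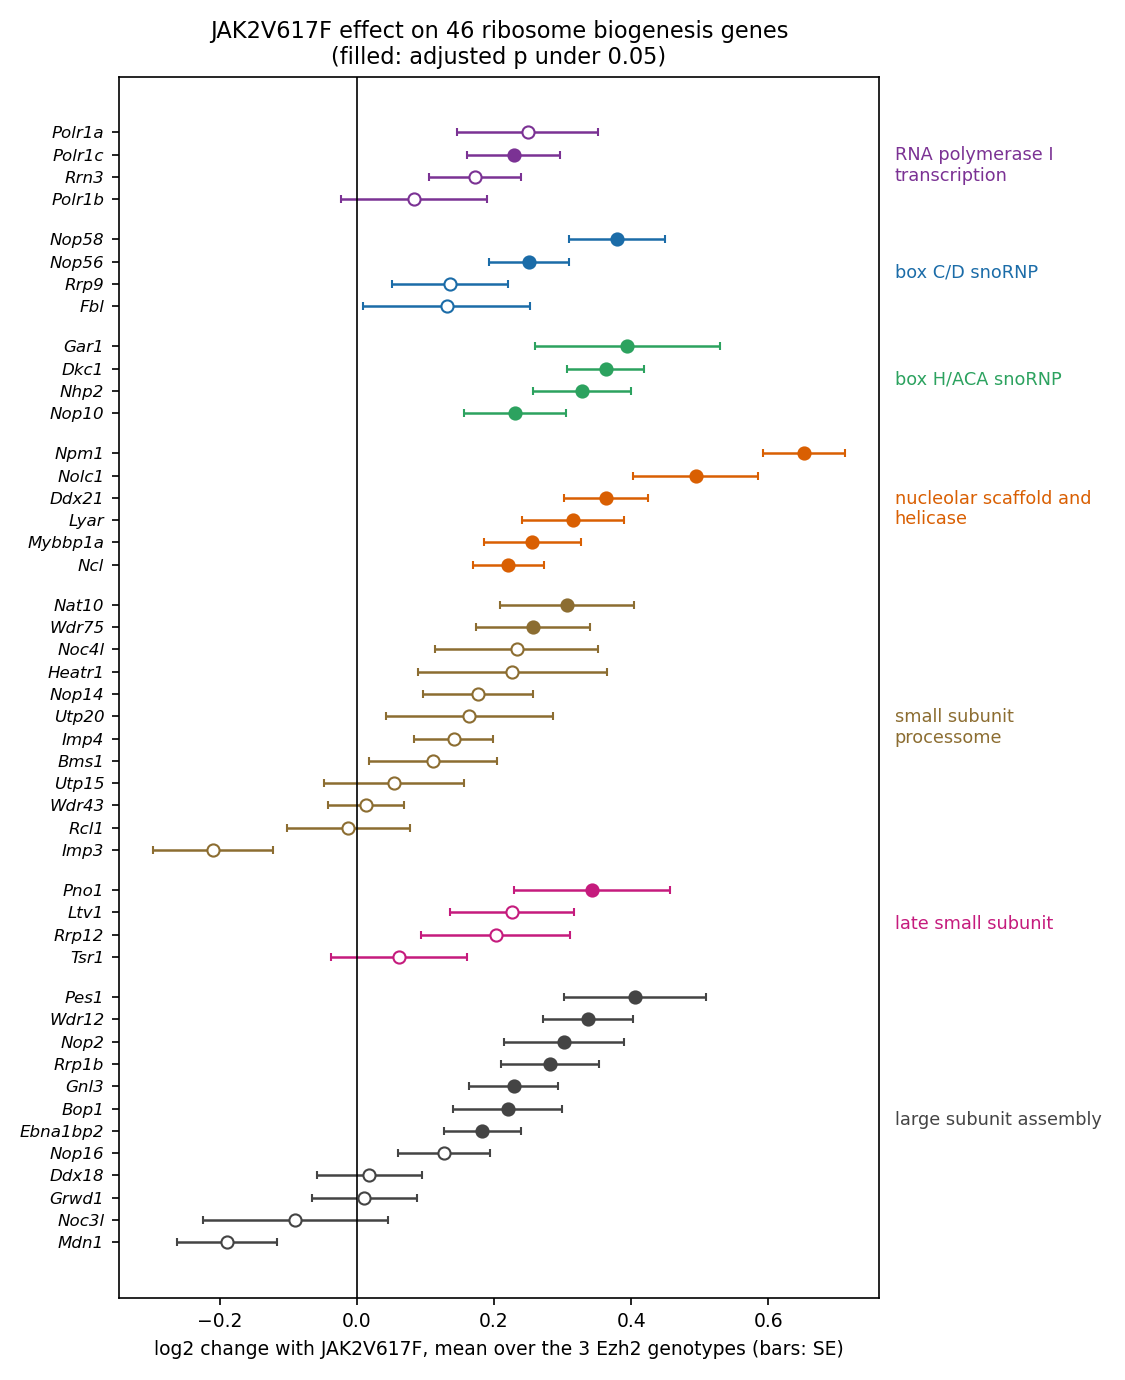
Pooled log2 change with JAK2V617F (horizontal axis) with its SE for each of the 46 members, grouped by role, from the edgeR fit of 35 libraries. Filled points are the 23 members past an adjusted p of 0.05, which include all 6 nucleolar scaffold and helicase genes and all 4 box H/ACA genes.

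By role, the nucleolar scaffold and helicase genes rose in 6 of 6 cases (median log2 change 0.3392) and the box H/ACA genes in 4 of 4 (0.3453). Large subunit factors rose in 7 of 12 (0.2013) and box C/D genes in 2 of 4 (0.1932). Of the small subunit processome 2 of 12 rose (0.1526), of the late small subunit factors 1 of 4 (0.2144), and of the RNA polymerase I genes 1 of 4 (0.2008). The difference between roles was not tested.

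In the comparisons by genotype fewer members passed. With both Ezh2 alleles lost, 2 of 46 rose with JAK2V617F and none fell, where 4.81% of tested genes were called, 2.84% higher and 1.97% lower. With 1 allele lost, 4 rose and none fell (9% of tested genes called, 4.82% higher and 4.18% lower). With intact Ezh2, 2 rose and none fell (4.15% called, 2.34% higher and 1.81% lower). At an unadjusted p under 0.05 the numbers were 20 higher and 1 lower, 13 higher and 0 lower, and 13 higher and 0 lower, in the same order, where 1481 of all 14945 tested genes were higher and 1273 lower, 1763 higher and 1632 lower, and 1332 higher and 1294 lower. The member medians of 0.269, 0.133 and 0.262 stood beside medians of 0.0082, -0.0088 and -0.0267 over all tested genes. Except for Rrp9, the members called in these 3 comparisons also rose in the pooled one, which shares their libraries. Without the doubted libraries, the member median with 1 allele lost was 0.144, 6.02% of tested genes were called, and 3 members rose, namely Npm1 (0.53, adjusted p = 6.55e-04), Nop58 (0.402, adjusted p = 0.0397) and Ddx21 (0.349, adjusted p = 0.0387).

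Among the nucleolar scaffold genes, Npm1, the abundant chaperone that stores and moves ribosomal proteins and is mutated in leukaemia, had the smallest adjusted p. JAK2V617F Ezh2 -/- libraries had a lowest, median and highest level of 780, 816 and 888 CPM, against 520, 523, 523 and 518 CPM in Ezh2 -/- libraries. JAK2V617F Ezh2 +/- libraries had 674, 764 and 942 CPM, against 394, 496 and 609 CPM in Ezh2 +/- libraries. JAK2V617F libraries had 565, 764 and 818 CPM, against 400, 366, 574 and 510 CPM in controls. The groups did not overlap with either Ezh2 genotype, and 5 of 6 JAK2V617F libraries lay above every control. The log2 change of Npm1 was 0.63 (SE 0.117, edgeR adjusted p = 9.85e-04) without Ezh2, 0.60 (SE 0.0886, adjusted p = 2.41e-05) with 1 allele, 0.72 (SE 0.118, adjusted p = 3.79e-04) with intact Ezh2 and 0.65 (SE 0.0598, adjusted p = 8.52e-10) pooled. With intact Ezh2 it was 1.04 within batch 1 and 0.42 within batch 2, where its adjusted p was 0.404.

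**Figure D2:**
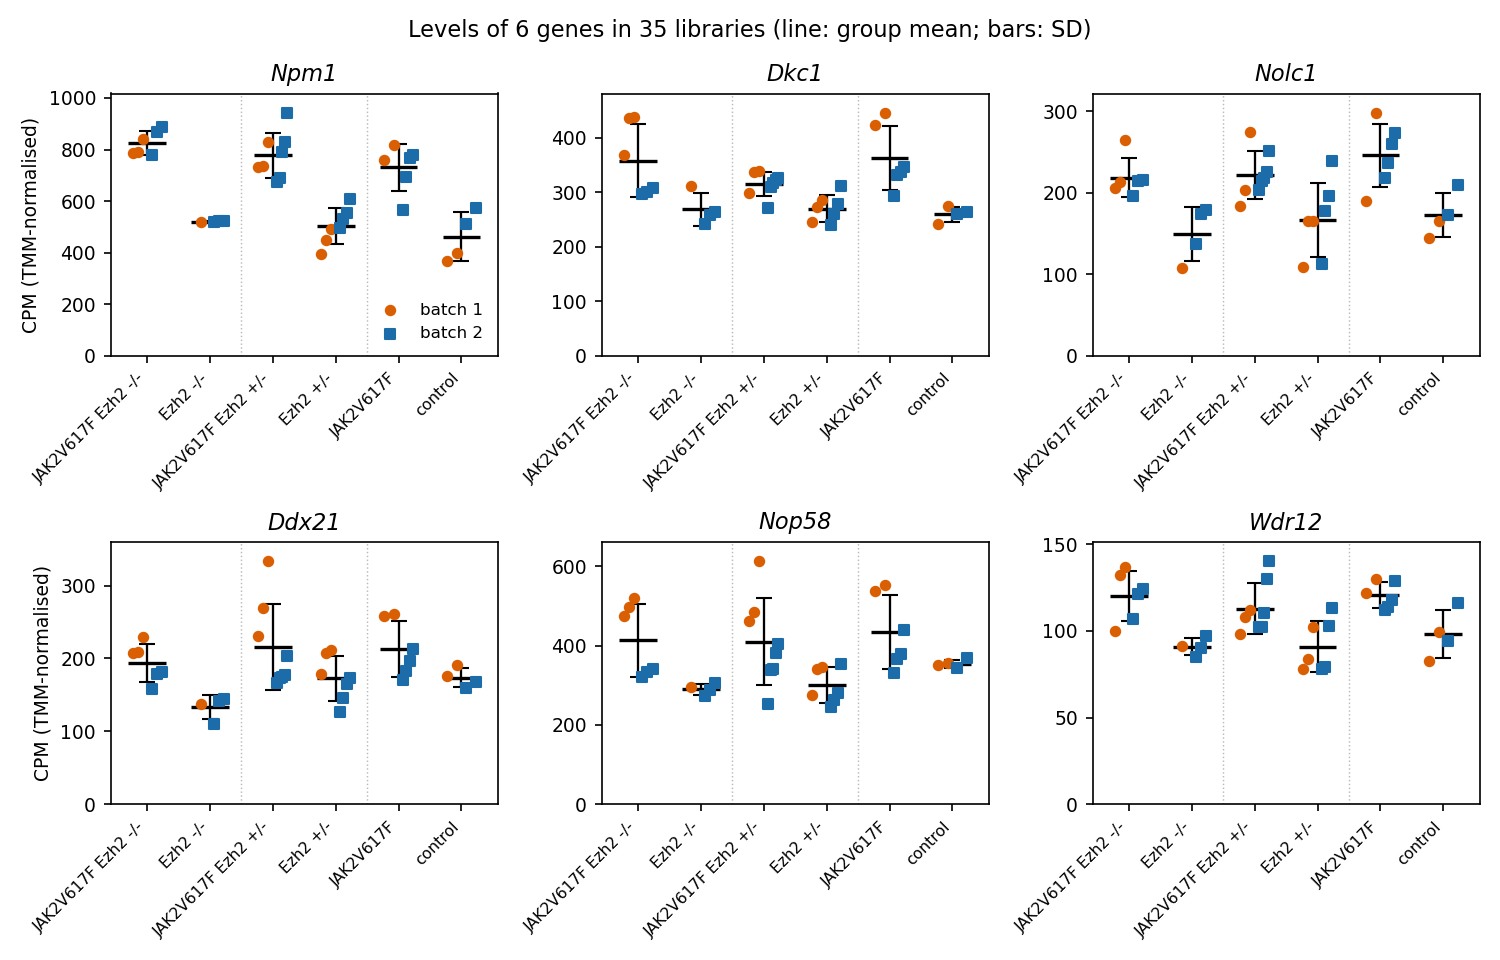
Level in CPM (vertical axes, from 0) of members with the smallest pooled adjusted p, 1 point per library by genotype group (circles batch 1, squares batch 2), with group means and SD. Npm1 lies at 780 to 888 CPM in JAK2V617F Ezh2 -/- libraries, above the 518 to 523 CPM of Ezh2 -/- libraries.

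Nolc1, a chaperone of the modifying particles in the nucleolus, passed in the pooled comparison but in no single genotype of the main edgeR fit. DESeq2 called it higher with JAK2V617F in each of the genotype comparisons. Without a sex term, edgeR called it in both comparisons with Ezh2 alleles lost. With intact Ezh2, edgeR called it with replicate numbers as a block and without the doubted libraries. JAK2V617F Ezh2 -/- libraries had 196, 214 and 265 CPM (lowest, median, highest, as for all groups of more than 5), against 108, 174, 179 and 137 CPM in Ezh2 -/- libraries. JAK2V617F Ezh2 +/- libraries had 184, 216 and 275 CPM, against 109, 166 and 239 CPM in Ezh2 +/- libraries. JAK2V617F libraries had 190, 248 and 298 CPM, against 144, 166, 209 and 173 CPM in controls. All 6 JAK2V617F Ezh2 -/- libraries lay above every Ezh2 -/- library, while the other pairs overlapped. The pooled log2 change was 0.49 (SE 0.0907, edgeR adjusted p = 1.04e-04).

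Ddx21, an RNA helicase of the nucleolus, had 158, 194 and 230 CPM in JAK2V617F Ezh2 -/- libraries, against 138, 110, 145 and 142 CPM in Ezh2 -/- libraries. It had 167, 191 and 333 CPM in JAK2V617F Ezh2 +/- libraries, against 127, 173 and 211 CPM in Ezh2 +/- libraries. With intact Ezh2 the JAK2V617F libraries had 170, 204 and 261 CPM, against 191, 176, 168 and 160 CPM in controls. The first pair did not overlap, and all 4 Ezh2 -/- libraries also lay below every control. Ddx21 rose by a log2 change of 0.32 with 1 Ezh2 allele (SE 0.0916, edgeR adjusted p = 0.0245) and of 0.36 pooled (SE 0.0617, adjusted p = 3.8e-05).

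Nucleolin, Ncl, an abundant RNA-binding protein of the nucleolus, had 1558.9, 1618 and 1879.8 CPM in JAK2V617F libraries, against 1200.9, 1266.6, 1551.6 and 1452.5 CPM in controls. It had 1218.7, 1537.1 and 1663 CPM in JAK2V617F Ezh2 -/- libraries, against 934, 1366.6, 1455.6 and 1428.5 CPM in Ezh2 -/- libraries. JAK2V617F Ezh2 +/- libraries had 1305.5, 1500.9 and 1605.3 CPM, against 885, 1318.6 and 1617.7 CPM in Ezh2 +/- libraries. The JAK2V617F libraries all lay above the controls, while the other pairs overlapped. Its pooled log2 change was 0.22 (SE 0.0519, edgeR adjusted p = 0.00172). Lyar, a nucleolar zinc finger protein, had 87.7, 97.2 and 106 CPM in JAK2V617F Ezh2 -/- libraries, against 86.4, 67.6, 83.3 and 74.7 CPM in Ezh2 -/- libraries. It had 70.7, 92.5 and 116 CPM in JAK2V617F Ezh2 +/- libraries, against 57.8, 72.9 and 99.6 CPM in Ezh2 +/- libraries. With intact Ezh2 it had 83.7, 106 and 117 CPM in JAK2V617F libraries, against 70.7, 73.8, 88.5 and 83.8 CPM in controls. Only the first of these pairs did not overlap. Lyar rose by 0.32 pooled (SE 0.0745, edgeR adjusted p = 0.00181). Mybbp1a, a nucleolar protein that binds Myb, rose by 0.26 (adjusted p = 0.00702); its promoter is the second of those shown above.

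Of the box H/ACA proteins, Dkc1 is dyskerin, the enzyme that turns uridine into pseudouridine and that also binds telomerase RNA. JAK2V617F libraries had 293, 341 and 445 CPM, against 274, 241, 263 and 259 CPM in controls. JAK2V617F Ezh2 -/- libraries had 296, 338 and 438 CPM, against 311, 241, 258 and 263 CPM in Ezh2 -/- libraries. JAK2V617F Ezh2 +/- libraries had 270, 320 and 339 CPM, against 239, 272 and 311 CPM in Ezh2 +/- libraries. All 6 JAK2V617F libraries lay above the controls, and the other pairs overlapped. Dkc1 rose by a log2 change of 0.51 with intact Ezh2 (SE 0.111, edgeR adjusted p = 0.00632) and of 0.36 pooled (SE 0.0563, adjusted p = 1e-05). The gene is X-linked and the controls were female, and in females alone the pooled log2 change was 0.469. The pooled value was 0.546 within batch 1 and 0.242 within batch 2. The female JAK2V617F libraries were all of batch 1, and 1 Ezh2 -/- library was female, so females alone are not a check apart from batch. With intact Ezh2 the log2 change was 0.75 within batch 1, 0.263 within batch 2 and 0.668 in females alone.

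The other proteins of this particle also rose pooled. Nhp2, a core protein of the particle, had 135, 157 and 185 CPM in JAK2V617F Ezh2 -/- libraries, against 132, 132, 88.1 and 116 CPM in Ezh2 -/- libraries. It had 113, 165 and 179 CPM in JAK2V617F Ezh2 +/- libraries, against 119, 132 and 163 CPM in Ezh2 +/- libraries. With intact Ezh2 it had 130, 175 and 235 CPM in JAK2V617F libraries, against 148, 158, 135 and 112 CPM in controls. The first pair did not overlap and the others did, though 5 of 6 JAK2V617F libraries stood above every control. Nhp2 rose by 0.33 pooled (SE 0.0717, edgeR adjusted p = 8.36e-04). Nop10 rose by 0.23 (adjusted p = 0.0199) and Gar1 by 0.39 (adjusted p = 0.0295). Gar1 stood at 0.941 within batch 1 and 0.102 within batch 2, with SE of 0.36 and 0.114.

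Box C/D particles methylate ribosomal RNA. Of their proteins, Nop58 had 320, 408 and 519 CPM in JAK2V617F Ezh2 -/- libraries, against 295, 305, 272 and 288 CPM in Ezh2 -/- libraries. It had 254, 392 and 612 CPM in JAK2V617F Ezh2 +/- libraries, against 245, 280 and 354 CPM in Ezh2 +/- libraries. With intact Ezh2 it had 331, 409 and 552 CPM in JAK2V617F libraries, against 352, 355, 368 and 343 CPM in controls. The first pair did not overlap, the others did, and all 4 Ezh2 -/- libraries lay below every control. Nop58 rose by 0.41 with 1 Ezh2 allele (SE 0.105, edgeR adjusted p = 0.0103) and by 0.38 pooled (SE 0.0705, adjusted p = 1.22e-04). The pooled value was 0.607 within batch 1 and 0.191 within batch 2.

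Nop56, the other scaffold protein of that particle, had 333, 351 and 383 CPM in JAK2V617F libraries, against 287, 291, 277 and 265 CPM in controls. It had 268, 314 and 419 CPM in JAK2V617F Ezh2 -/- libraries, against 264, 233, 285 and 262 CPM in Ezh2 -/- libraries. It had 259, 299 and 365 CPM in JAK2V617F Ezh2 +/- libraries, against 231, 290 and 323 CPM in Ezh2 +/- libraries. With intact Ezh2 the groups did not overlap, while the other pairs did. Its pooled log2 change was 0.25 (SE 0.0585, edgeR adjusted p = 0.00158). Fbl, the methyltransferase of the same particle, was lowly counted at 12.5 RPKM and did not pass (0.13, adjusted p = 0.478).

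Rrp9, a protein of the U3 particle, passed in the absence of Ezh2. It had 40, 49.7 and 79.7 CPM in JAK2V617F Ezh2 -/- libraries, against 27.2, 46.9, 47 and 31.7 CPM in Ezh2 -/- libraries. It had 37.6, 48.1 and 54.5 CPM in JAK2V617F Ezh2 +/- libraries, against 38.2, 45.7 and 61 CPM in Ezh2 +/- libraries. With intact Ezh2 it had 33.3, 53.3 and 64.4 CPM in JAK2V617F libraries, against 61.3, 35.1, 67.8 and 58.7 CPM in controls. All 3 pairs overlapped. Rrp9 rose by 0.68 without Ezh2 (SE 0.166, edgeR adjusted p = 0.0129), while the pooled value was 0.14 and did not pass. Without Ezh2 the value was 0.826 within batch 1 (adjusted p = 0.728), 0.666 within batch 2 (adjusted p = 0.0796) and 0.365 in females alone (adjusted p = 0.77), where 1 of 4 Ezh2 -/- libraries is female. It no longer passed when Ezh2 -/- batch 1 replicate 1 or batch 2 replicate 3 was left out (0.613 and 0.58, adjusted p up to 0.0622). The difference in the effect of Ezh2 loss with and without JAK2V617F was 0.89 and did not pass either (adjusted p = 0.371).

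Among large subunit factors, the trimer of Pes1, Bop1 and Wdr12, which is needed to mature the large subunit RNA, rose in all 3 parts. Wdr12 had 100, 122 and 137 CPM in JAK2V617F Ezh2 -/- libraries, against 91.4, 90.4, 84.7 and 96.8 CPM in Ezh2 -/- libraries. It had 98, 109 and 140 CPM in JAK2V617F Ezh2 +/- libraries, against 77.8, 83.7 and 113 CPM in Ezh2 +/- libraries. With intact Ezh2 it had 112, 120 and 130 CPM in JAK2V617F libraries, against 99.3, 82.7, 94.2 and 116 CPM in controls. Only the first of these pairs did not overlap. The pooled log2 change was 0.34 for Wdr12 (SE 0.0655, edgeR adjusted p = 2.18e-04), 0.41 for Pes1 (adjusted p = 0.00375) and 0.22 for Bop1 (adjusted p = 0.0386). Bop1 had 0.037 within batch 1 and 0.318 within batch 2, and without the doubted libraries its adjusted p was 0.0506.

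The other large subunit factors that rose pooled were Rrp1b (0.28, adjusted p = 0.00338), nucleostemin Gnl3 (0.23, adjusted p = 0.00867), the RNA methyltransferase Nop2 (0.30, adjusted p = 0.00997) and Ebna1bp2 (0.18, adjusted p = 0.0146). Rrp1b also rose with 1 Ezh2 allele, at 150 ± 20.7 CPM in JAK2V617F Ezh2 +/- libraries and 120 ± 24.7 CPM in Ezh2 +/- libraries (SD, n = 8 and 7; 0.33, edgeR adjusted p = 0.0458). Without the doubted libraries that change was 0.217 (adjusted p = 0.253). Mdn1, which strips assembly factors from the precursor, had the most negative value among the large subunit factors at -0.19, with an adjusted p of 0.0547. Noc3l at -0.09, Ddx18 at 0.02 and Grwd1 at 0.01 were near 0.

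Small subunit genes held most of the members that did not pass. Nat10, which acetylates cytidines of ribosomal RNA (0.31, adjusted p = 0.0185), and Wdr75, needed for precursor transcription (0.26, adjusted p = 0.0203), rose pooled, as did the late factor Pno1 (0.34, adjusted p = 0.0239). The U3 protein Imp3 had -0.21 with an adjusted p of 0.0746, and Wdr43, Rcl1 and Utp15 had 0.01, -0.01 and 0.05. Among the RNA polymerase I genes Polr1c, a subunit shared with RNA polymerase III, rose by 0.23 (adjusted p = 0.0116). The largest subunit Polr1a had 0.25 with an adjusted p of 0.0753, and the initiation factor Rrn3 had 0.17 with an adjusted p of 0.0558.

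**Figure D3:**
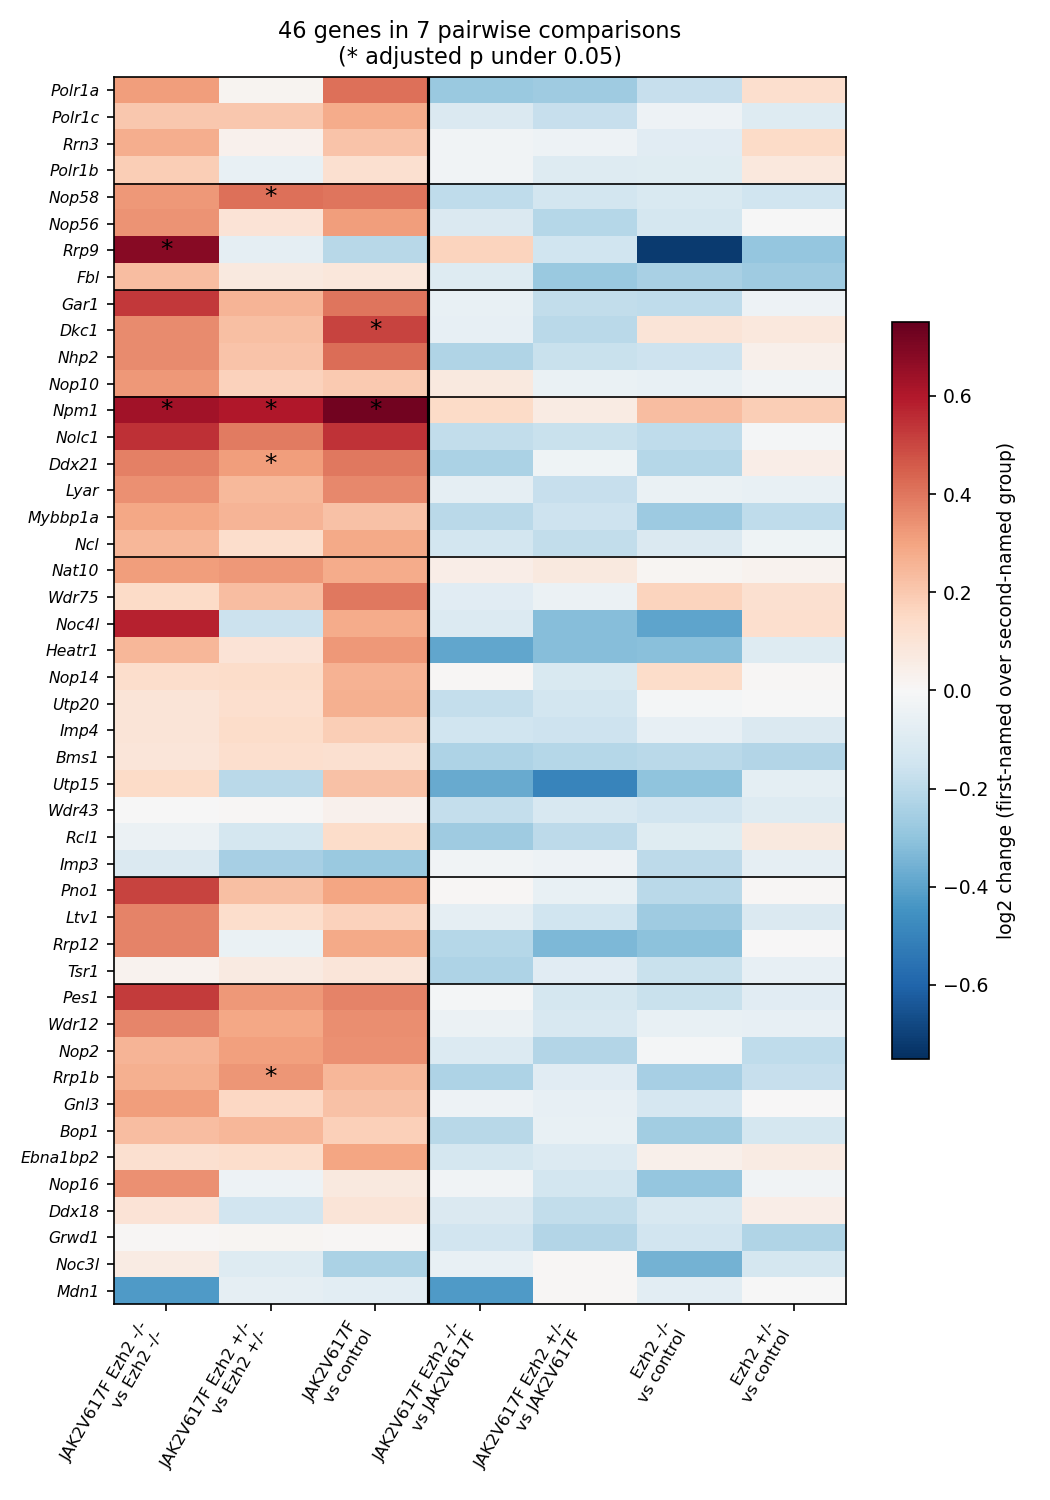
Log2 change of each of the 46 members (rows, by role) in each comparison (columns) from the edgeR fit, with marks for an adjusted p under 0.05. The JAK2V617F comparisons are mostly positive, and no member is marked where Ezh2 alleles were lost without a change in JAK2V617F status.

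Loss of Ezh2 alone moved no member past the threshold. Between Ezh2 -/- and control libraries edgeR called 0 of 46 members and 0% of all tested genes, with 1 member lower at an unadjusted p under 0.05, where 408 of 14945 genes were higher and 499 lower. DESeq2 called 1 member, Rrp9 (log2 change -0.712, adjusted p = 0.0369), and 0.657% of the genes it tested. The values leaned low, with 40 of 46 negative and a median of -0.143, against -0.011 over all tested genes. The lean was smaller with replicate numbers as a block, where the medians were -0.057 and -0.023. Under the other alternatives the member median was -0.219 to -0.118, and leaving out each library gave -0.154 to -0.105. The smallest p-values were those of Rrp9 (-0.72), Nop16 (-0.293) and Npm1 (0.233). Every Ezh2 -/- library lay below every control for 2 members, Nop58 and Ddx21 (4.35% of members, where 1.39% of all tested genes did so), and for 0 members every one lay above, where 1.43% of all tested genes did.

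Between Ezh2 +/- and control libraries edgeR called 0 members, where 0% of all tested genes were called. At an unadjusted p under 0.05 there were 0 members, where 339 genes were higher and 443 lower, and DESeq2 called 0 members and 0.433% of the genes it tested. The member median was -0.0304, and the smallest p-values were those of Rrp9 (-0.293), Npm1 (0.182) and the histone-binding factor Grwd1 (-0.227). These groups overlapped for all 46 members, where 0.161% of tested genes lay wholly above and 0.147% wholly below the controls. Without the doubted libraries edgeR again called 0 members, and the median was -0.019, against -0.015 over all tested genes.

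With JAK2V617F present, loss of Ezh2 again passed for no member. Between JAK2V617F Ezh2 -/- and JAK2V617F libraries edgeR called 0 members (0.448% of tested genes were called, 0.375% higher and 0.0736% lower), and 3 were lower at an unadjusted p under 0.05, where 626 genes were higher and 448 lower. DESeq2 called 0 members and 1.31% of the genes it tested. The median was -0.108, with 40 of 46 negative. With DESeq2's size factors the member median was -0.107, against 0.007 over all tested genes. Mdn1 came closest, at 73.2 ± 12.6 CPM in JAK2V617F Ezh2 -/- libraries and 95 ± 13.4 CPM in JAK2V617F libraries (SD, n = 6 each; log2 change -0.427, adjusted p = 0.201). Ddx21 had -0.234 and the processome protein Utp15 -0.376. The groups overlapped for all 46 members, where 0.796% of tested genes lay wholly above and 0.174% wholly below the JAK2V617F libraries.

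Between JAK2V617F Ezh2 +/- and JAK2V617F libraries edgeR called 0 members and 0% of tested genes, and 4 members were lower at an unadjusted p under 0.05, where 320 genes were higher and 256 lower. DESeq2 called 0 members and 0.298% of the genes it tested. The median was -0.145, with 42 of 46 negative. With DESeq2's size factors the member median was -0.144, against 0.008 over all tested genes. Utp15 was at 44.6, 60.2 and 70.2 CPM in JAK2V617F Ezh2 +/- libraries, against 73.6, 82.7 and 92.2 CPM in JAK2V617F libraries. These groups did not overlap (0.0401% of all tested genes did so in this direction, and 0% in the other), but the log2 change of -0.493 did not pass. Nop56 at -0.214 and Dkc1 at -0.202 followed.

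The effect of losing both Ezh2 alleles was not shown to differ with JAK2V617F. In this test of the difference edgeR called 0 members (0.00669% of tested genes were called), and 1 had an unadjusted p under 0.05, namely Rrp9, where 464 genes were higher and 348 lower. DESeq2 called 0 members and 0.623% of the genes it tested. Differences were positive for 23 members and negative for 23, with a median of 0.003. The same test was not made for loss of 1 allele.

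Separation of whole groups, in CPM without a term for batch or sex, showed the same direction. JAK2V617F libraries all lay above all controls for 6 members (13%, where 3.49% of tested genes did so), namely Nop56, Dkc1, Ncl, Imp4, Nop2 and Ebna1bp2. JAK2V617F Ezh2 -/- libraries all lay above all Ezh2 -/- libraries for 9 members (19.6%, against 3.87%), namely Rrn3, Nop58, Nhp2, Npm1, Nolc1, Lyar, Ddx21, Wdr12 and Gnl3. Between JAK2V617F Ezh2 +/- and Ezh2 +/- libraries only Npm1 did so, where 0.769% of tested genes did. In the 3 comparisons, listed in this order, 0 members lay wholly below, where 2.77%, 2.96% and 0.662% of tested genes did.

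A summary level per library, the mean log2(CPM + 1) over the 46 members without a term for batch or sex, put the groups in order. It was highest in JAK2V617F libraries at 6.957 ± 0.037 (SD, n = 6), then 6.827 ± 0.106 in JAK2V617F Ezh2 -/- (n = 6) and 6.815 ± 0.061 in JAK2V617F Ezh2 +/- libraries (n = 8). Controls followed at 6.725 ± 0.057 (n = 4), Ezh2 +/- libraries at 6.67 ± 0.144 (n = 7) and Ezh2 -/- libraries at 6.589 ± 0.075 (n = 4). JAK2V617F libraries, from 6.922 to 7.011, did not overlap controls, from 6.668 to 6.799, and JAK2V617F Ezh2 -/- libraries, from 6.729 to 7.011, did not overlap Ezh2 -/- libraries, from 6.51 to 6.689. JAK2V617F Ezh2 +/- libraries, from 6.745 to 6.934, overlapped Ezh2 +/- libraries, from 6.524 to 6.874. Without the doubted libraries Ezh2 +/- stood at 6.701 ± 0.157 (n = 5), from 6.529 to 6.874, and the overlap remained. Neighbours in this order overlapped throughout. The means of JAK2V617F Ezh2 -/- and JAK2V617F Ezh2 +/- libraries differed by less than their SD.

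**Figure D4:**
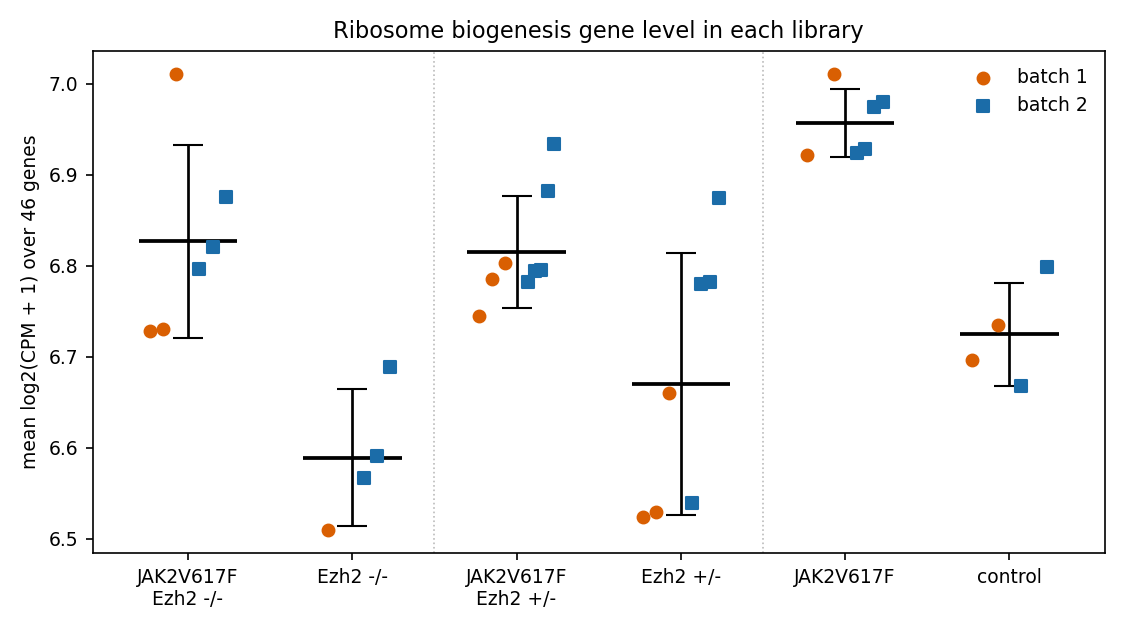
Mean log2(CPM + 1) over the 46 members (vertical axis) for each of 35 libraries by genotype group, with group means and SD. JAK2V617F libraries lie at 6.922 to 7.011, above the controls at 6.668 to 6.799.

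JAK2V617F groups stood above their partners in both batches. JAK2V617F exceeded control by 0.25 in batch 1 and 0.218 in batch 2, and JAK2V617F Ezh2 -/- exceeded Ezh2 -/- by 0.313 and 0.215. JAK2V617F Ezh2 +/- exceeded Ezh2 +/- by 0.207 and 0.094, and without the doubted libraries, which leaves 1 Ezh2 +/- library in batch 1, by 0.248 and 0.094. The level carries no sex term. In batch 2 the JAK2V617F libraries were all male and the controls all female, so sex and genotype cannot be told apart there. In batch 1 both of these groups were all female. Batch 1 held 1 Ezh2 -/- library, labelled male, while its JAK2V617F Ezh2 -/- libraries were all female. Among the groups without JAK2V617F, Ezh2 -/- minus control was -0.206 in batch 1 and -0.118 in batch 2. Ezh2 +/- minus control was -0.145 in batch 1 but 0.01 in batch 2, with 6.744 in Ezh2 +/- and 6.734 in control libraries, so the order of these groups turned in batch 2, by less than their SD.

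Proliferation genes moved with the members. All 32 rose in the pooled comparison, where 12.9% of all tested genes were called higher and 12.5% lower. Their median log2 change was 1.522, and their mean log2(CPM + 1) was 6.413 in JAK2V617F libraries and 4.931 in controls. Bub1b, a mitotic checkpoint kinase, rose by 2.13, and Cdk1, the kinase that starts mitosis, by 1.74. Of 11 LT-HSC markers 8 fell pooled, with a median of -0.584. Erythroid markers fell in 5 of 7 cases, 2 of 6 megakaryocyte markers rose, 1 lymphoid marker fell, and none of 10 neutrophil and monocyte markers passed, while their summed level was 1761.5 to 16165.6 CPM in JAK2V617F libraries and 2485.9 to 6531.7 CPM in controls. Summed lymphoid markers were 0 to 7.81 CPM in libraries with JAK2V617F and 0 to 26.4 CPM in libraries without it, with Cd3e, Il7r and Ebf1 at 0 in most libraries. The part of these differences in the members' change was not tested. In bulk RNA, fewer cells of a type and less RNA per cell cannot be told apart.

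The other genes of the pathway were counted in the same way. Of 119, 35 rose and 4 fell pooled (median log2 change 0.1179), where 12.9% of all tested genes were called higher and 12.5% lower. The RNA exosome, which trims precursor RNA, rose in 6 of 14 cases, with its subunit Exosc9 at 0.59. Other small subunit factors rose in 14 of 39, other RNA polymerase I genes in 4 of 16, and other large subunit factors rose in 11 and fell in 4 of 50. Rpf2 (0.51) and Rsl1d1 (0.31), both of the large subunit, rose, and Nop53, of the same subunit, fell by 0.58. Of the ribosomal proteins themselves, 7 of 79 rose, with the smallest adjusted p for Rpl15 (log2 change 0.47), 5 fell, and the median was -0.0025. In each direction this was a smaller share than that of all tested genes. Their counts are uncertain because they have many processed copies.

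**Figure D5:**
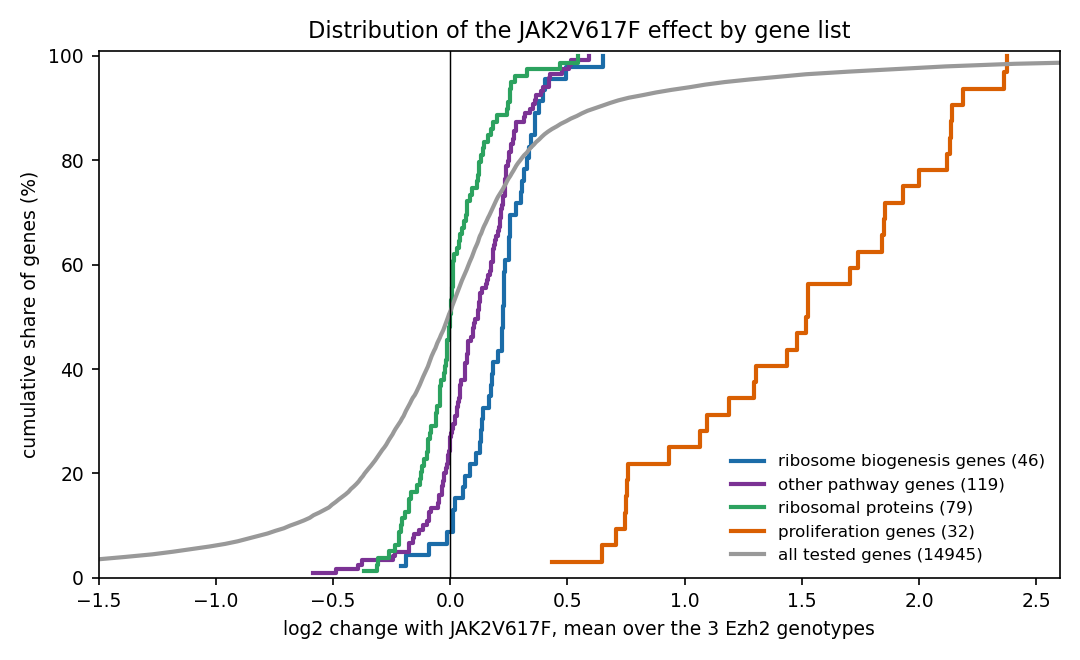
Cumulative share of genes (vertical axis) by pooled log2 change with JAK2V617F (horizontal axis) for the members, other pathway genes, ribosomal proteins, proliferation genes and all tested genes. The members' median is 0.2266, the ribosomal proteins' -0.0025 and the proliferation genes' 1.522.

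Of 11 tested genes of the Myc network, 3 rose and 3 fell pooled, where 12.9% of all tested genes were called higher and 12.5% lower. Myc was at 706 ± 176 CPM in JAK2V617F libraries and 574 ± 166 CPM in controls (SD, n = 6 and 4), and rose by 0.31 pooled (edgeR adjusted p = 0.0421). Mycn rose by 0.54. The antagonists of Myc did not move one way, since Mxd3 rose by 0.83, while its relative Mxd1 fell by 0.34 and Mnt by 0.46. Mlxip fell by 0.56. Mycn was at 332 ± 89.2 CPM in JAK2V617F Ezh2 -/- libraries, 151 ± 50.8 CPM in JAK2V617F and 123 ± 30.8 CPM in Ezh2 -/- libraries (SD, n = 6, 6 and 4). It rose by 1.38 against JAK2V617F (edgeR adjusted p = 0.0238) and by 1.71 against Ezh2 -/- libraries (adjusted p = 0.00336). The members' mean level was 6.827 in JAK2V617F Ezh2 -/- libraries, 6.957 in JAK2V617F and 6.589 in Ezh2 -/- libraries. A link between the Myc network and the members' level was not tested.

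Members varied loosely together from library to library once group, batch and sex were removed. The median Pearson correlation over 1035 pairs and 35 libraries was 0.124, with 67.5% of pairs positive, against 0.0 between members and all tested genes. It was 0.451 among ribosomal proteins and 0.517 among proliferation genes, and 0.178 between members and proliferation genes. These libraries share depth and batch, and the values are descriptions. Among pairs of a member with its closest other member, the highest were Ncl and Mybbp1a at 0.783, Nop2 and Fbl at 0.741, and Pes1 and Ncl at 0.688. Nop56 had the highest median with the other members, at 0.302, and the helicase Ddx18 the lowest, at -0.14.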

How the data were processed

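Raw counts per gene were deposited by the authors for 35 libraries of 13.6 to 48.6 M counts, prepared with a SMARTer low-input kit per the labels' protocols. STAR and mm9 are named in the submitters' processing notes, while the counting tool, annotation and strand setting were not stated in these sources. The separately counted part of Ezh2 (at most 0.000935% of counts) stayed out of library sizes and tests. edgeR 4.0.16 (TMM, filterByExpr) in R 4.3.3 was fitted to the 35 libraries with genotype, batch and sex as terms, giving 14945 tested genes, 27 residual degrees of freedom and a common biological coefficient of variation of 0.554. SE came from the log2 change and its F statistic. The threshold was a Benjamini-Hochberg adjusted p of 0.05. Groups, batch, sex and replicate numbers are those of the labels. No label ties a library to an animal, and p-values therefore measure only the spread between these libraries, which may be technical. Limits for a count of 0 use 3 counts and cover counting error only. The fit was tried on simulated counts with larger changes and less spread than these data, and without batch or sex effects. That trial does not measure error or power for changes as small as those of the members. Members, lists and the rule for naming genes (members past the threshold, the 10 smallest adjusted p in full where more pass, the 3 smallest p where fewer than 3 pass, and up to 4 called genes of each other list) were chosen with earlier results of these data known. The Myc network names all 6 of its called genes, beyond that rule. Alternatives used DESeq2 1.42.0, no low-count filter, no sex term, a replicate block, subsets of libraries, and leaving out each library. Tables and plots used Python 3.11.15, pandas 2.3.3 and matplotlib 3.10.9. RefSeq promoters on GRCm38.p6 matched 42 members.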

Additional observations from a re-analysis of the deposited data

Results flagged for a closer look

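Of 150 member and group combinations checked for a library far from the rest of its group, 7 stood out. This is near the share of about 5% that chance gives. Ncl was at 1879.8 CPM in JAK2V617F batch 2 replicate 2, against 1558.9 to 1674.8 CPM in the other 5 libraries of its group. Ncl was also at 934 CPM in Ezh2 -/- batch 1 replicate 1, below the 1366.6 to 1455.6 CPM of the other 3. Wdr75 was at 114 CPM in JAK2V617F batch 1 replicate 1, against 79.2 to 89.2 CPM. JAK2V617F Ezh2 -/- batch 1 replicate 2 stood out for a pair of members, Nolc1 at 265 CPM against 196 to 216 CPM, and Mybbp1a at 363 CPM against 275 to 285 CPM. Ebna1bp2 was at 212 CPM in Ezh2 +/- batch 2 replicate 4, against 135 to 167 CPM. Rrp1b was at 174 CPM in Ezh2 +/- batch 1 replicate 2, against 103 to 123 CPM.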

How the results depend on the processing

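No called value changed direction under the alternatives run. Of the pooled comparison, 23 members passed, 4 in batch 1 alone (3.56% of all genes passed there), 10 in batch 2 alone (13.7%) and 9 in females alone (8.41%), which hold fewer libraries. DESeq2 called the same 23 higher and Mdn1 lower (-0.2, adjusted p = 0.038; 27.7% of all genes passed), and so did its size factors (adjusted p = 0.0439). Without the doubted libraries 22 rose and Imp3 fell (-0.239, adjusted p = 0.0402). The counts by genotype moved more. JAK2V617F against control called 4 with DESeq2 (6.79% of all genes), 5 with the replicate block (5.4%), 1 in batch 1 (0.418%) and 0 in batch 2 (0.213%). JAK2V617F Ezh2 -/- against Ezh2 -/- called 5 with DESeq2 (7.56%), 6 without a sex term (5.33%), 1 with the compared groups only (1.67%), 0 in batch 1 (0.0193%), 1 in batch 2 (2.26%) and 0 in females (0.193%). JAK2V617F Ezh2 +/- against Ezh2 +/- called 1 with the compared groups only (5.84%), 1 in each batch (1.03% and 3.83%) and 2 in females (2.03%). DESeq2 called 1 for Ezh2 -/- against control (0.657%). The cause of these differences was not tested. Leaving out each library gave 21 to 26 calls pooled, 2 to 3, 1 to 3 and 2 to 8 in the 3 genotype comparisons with intact Ezh2, no Ezh2 and 1 allele, and 0 in the others. The 2 and the 8 came without Ezh2 +/- batch 2 replicates 2 and 4. Bop1 lost its pooled call in 16 of 35 such fits (adjusted p up to 0.0887), Gar1 in 4 and Pno1 in 2, and Rrp1b its call with 1 allele in 11 of 15. Rrp9 lost its call without Ezh2 in 2 (up to 0.0622) and Ddx21 with 1 allele in 3 (up to 0.0705). The median over members in place of the mean gave 6.813 in JAK2V617F, 6.715 in JAK2V617F Ezh2 +/-, 6.668 in JAK2V617F Ezh2 -/- and 6.603 in control libraries. Replicate numbers did not pair libraries: deviations of same-numbered libraries correlated at a median of -0.002, as did others, and 9 of 34 were closest to their own number. With the replicate block 23 passed pooled, 22 of them shared. Calls of single members that no longer passed numbered 25 in batch 1 alone, 20 in batch 2 alone, 18 in females alone, 4 with the compared groups only and 0 to 2 under the other alternatives. Fbl had as few as 95 counts in a library.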
